A study of Mus musculus with 12 samples.

Results

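Mitochondrial carriers are the proteins that move metabolites, nucleotides, cofactors and metal ions across the inner membrane of mitochondria. Most are named solute carrier family 25, and their genes carry the symbol Slc25a followed by a number. The members were the rows of the hypothalamus count table with such a symbol, without duplicate-suffix or pseudogene rows, which gave 44 of 24020 genes. The study compared mice of 3 genotypes: wild-type, and heterozygous or homozygous for the targeted allele Wfs1tm1Koks. By the design text each had 4 individuals and 4 RNA sequencing libraries (the protocol in the labels speaks of 5 hypothalamus animals from both genotypes). Wfs1 encodes wolframin, a protein of the endoplasmic reticulum (ER) membrane. No treatment is named, all libraries are whole hypothalamus, and age and sex are not given in the labels used here. One homozygous column carries a number that no sample label has (5), and it was placed by its genotype.

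Carriers share a fold of 3 repeats, each a pair of membrane-spanning helices, and typically exchange one solute for another. Energy supply rests on them: adenine nucleotide carriers swap matrix ATP for cytosolic ADP, and the phosphate carrier brings in the phosphate for ATP synthesis. In brain, the aspartate-glutamate and oxoglutarate carriers complete the malate-aspartate shuttle, which passes reducing equivalents from the cytosol to the matrix. Wolframin takes part in ER calcium handling, and the ER and mitochondria exchange calcium at contact sites.

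Levels are given as CPM, counts scaled to a common library total with TMM factors, which correct the totals for composition. A gene is called where edgeR's quasi-likelihood test gives an adjusted p under 0.05 over all 10737 genes tested (Benjamini-Hochberg). SE is the standard error of a log2 fold change. Library totals were 979394 to 2330872 counts. Wfs1 itself stood at 114 to 167 CPM in wild-type, 81.8 to 103 in heterozygous and 14.8 to 20.1 in homozygous libraries. The homozygous libraries numbered 4 and 5 stood apart: the ribosomal RNA precursor Rn45s was at 95.6 and 85.8 CPM there, against 316 and 352 in the other homozygous libraries and 958 to 1983 in wild-type. They also had the lowest GC scores, the slope of a library's log2 CPM deviations on the G and C share of transcripts (−0.0475 and −0.0522 log2 units per percentage point). The score was 0.00255 to 0.0329 in wild-type, −0.00117 to 0.0215 in heterozygous and −0.0026 to 0.0018 in the remaining homozygous libraries, so wild-type and homozygous libraries did not overlap. Where leaving out these 2 libraries changes a call of a named carrier or a gene named from the pathway lists, that is given with the results. Calls of cell type markers, Mcart1 and Mcart6 are from the fit of all 12 libraries only.

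Of the 44 carriers, 31 had enough counts to be tested, and the other 13 summed to 3 to 79 counts over all libraries. Per kilobase of the longest transcript, the order in wild-type mice was led by Slc25a4 at 468 ± 75.2 CPM per kb, the adenine nucleotide translocase of heart, muscle and brain (SD, n = 4). The phosphate carrier Slc25a3 followed at 246 ± 25.9 and the calcium-activated ATP-Mg/phosphate carrier Slc25a23 at 101 ± 8.76 CPM per kb. On this scale these 3 were separated by more than their spread. Per kilobase of all exon bases of the gene, Slc25a4 still led at 383 ± 61.5, while Slc25a3 (71.5 ± 7.52) and Slc25a23 (64.1 ± 5.56) were not separated. The aspartate-glutamate carrier Slc25a12 (45.8 ± 8.48 CPM per kb) and the oxoglutarate carrier Slc25a11 (42.3 ± 4.84) did not differ beyond it. Slc25a22, the mitochondrial glutamate carrier 1, came next at 31.9 ± 9.13 CPM per kb of transcript. Slc25a14 (26.8 ± 1.21), Slc25a44 (24.2 ± 3.02) and Slc25a18 (21.8 ± 2.73) followed, with SD ranges that overlap that of Slc25a22. Per kb of exon bases Slc25a22 was at 14.96 ± 4.28, below these 3. Slc25a4 alone made up 29.4 to 36.2% of the summed CPM of the 44 carriers in wild-type, 31 to 39.1% in heterozygous and 36.3 to 55.1% in homozygous libraries. That sum was 2814 ± 199 CPM in wild-type and 3715 ± 657 in homozygous mice, and 1912 ± 78.0 against 1969 ± 37.2 without Slc25a4 (SD, n = 4).

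**Figure D1:**
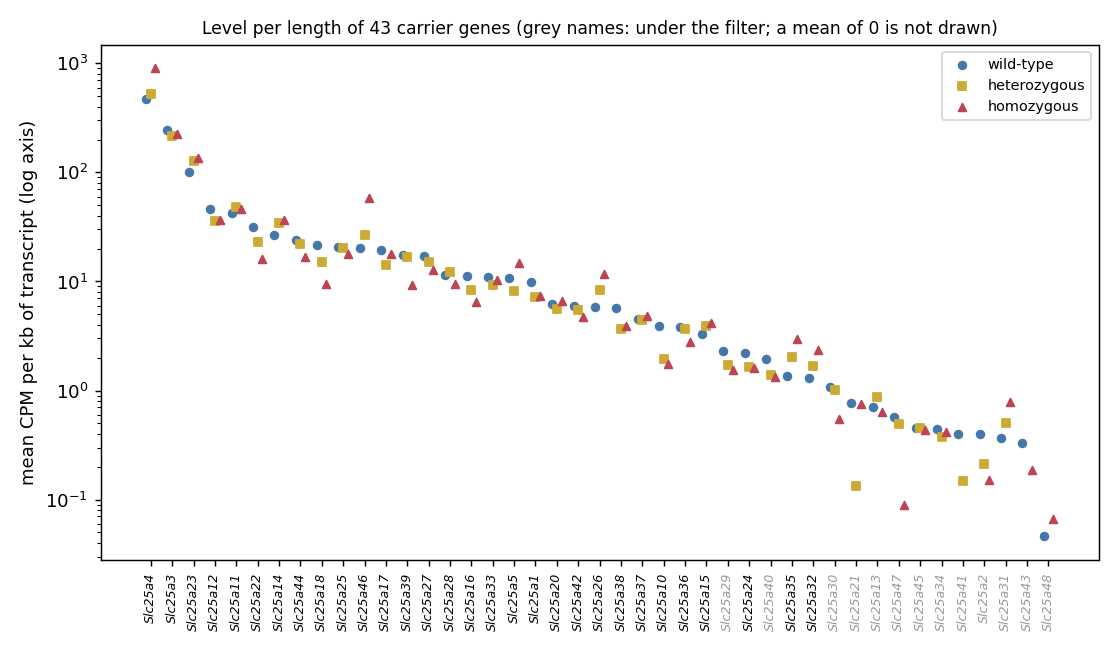
Mean level of 43 of the carrier genes (x axis, ordered by the wild-type level) in CPM per kb of the longest transcript (y axis, log scale), with 1 point per genotype (mean of 4 libraries). Slc25a4, Slc25a3 and Slc25a23 lead at 468, 246 and 101 in wild-type mice, and most genes named in grey, which were not tested, lie at the low end.

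In homozygous mice against wild-type, 3 of the 31 tested carriers were higher and 5 lower. The higher ones were the outer membrane member Slc25a46, the carrier of unsettled substrate Slc25a35 and the adenine nucleotide translocase Slc25a4. The lower ones were the glutamate carriers Slc25a18 and Slc25a22, Slc25a39 (a glutathione carrier), Slc25a44 (a branched-chain amino acid carrier) and Slc25a16 (linked to coenzyme A). Among all genes tested 25.4% were called, 13.7% higher and 11.6% lower, so 8 of 31 is near the background. With upper-quartile scaling the split over all genes turned from 1475 higher and 1248 lower to 1238 and 1575, while the 8 carriers stayed called in their directions. The median log2 fold change was −0.20 over the tested carriers and −0.03 over all genes tested. CPM of the wild-type and homozygous groups did not overlap for 3 tested carriers on the higher and 3 on the lower side (23.6% of all genes tested did not overlap, in either direction). Slc25a35, which is in both counts of higher carriers, passed the filter on low counts through mutant libraries. It was higher there, so the filter favoured its place in these counts. Of the tested carriers, 0 separated all 3 genotypes in the order of mutant copies (1.39% of all genes tested did).

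**Figure D2:**
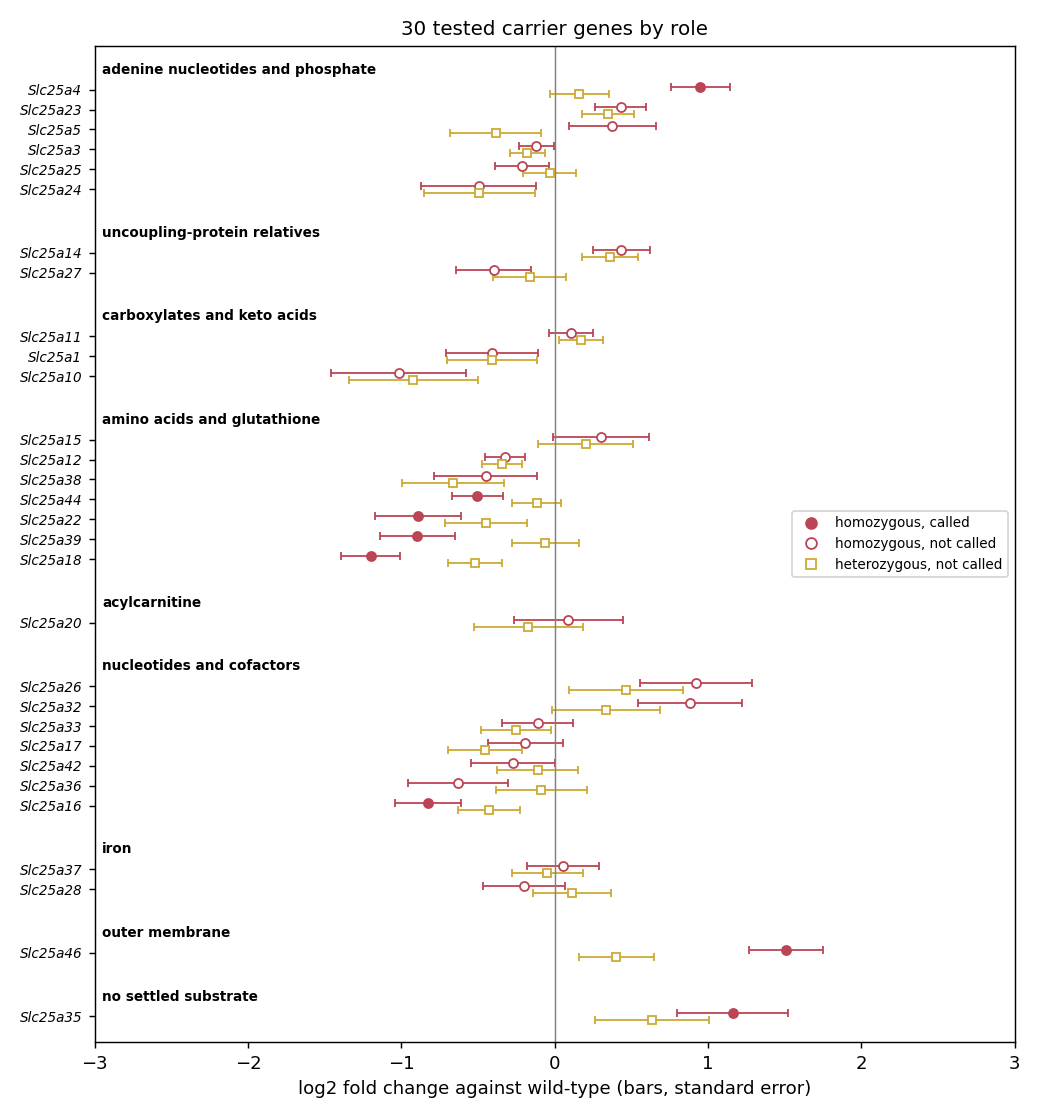
Log2 fold change against wild-type (x axis; bars, standard error) for 30 of the tested carriers (y axis, grouped by role), in homozygous (circles, filled where called) and heterozygous mice (squares, none called). Homozygous values run from −1.20 for Slc25a18 to 1.51 for Slc25a46. Of the 5 lower calls, 4 lie in the amino acid and glutathione group (11.6% of all genes tested were lower). Of these 4, Slc25a18 alone remained called without the homozygous libraries 4 and 5.

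Among the 6 tested carriers of adenine nucleotides and phosphate, 1 was higher and 0 lower (16.7% called, against 25.4% of all genes tested). Slc25a4 (chromosome 8, 46206797 to 46211284, minus strand, build mm10; protein coding) stood at 1104, 903, 780 and 819 CPM in wild-type, at 1041, 842, 1146 and 1007 in heterozygous and at 1133, 1159, 2377 and 2313 in homozygous libraries (replicates 1, 2, 4 and 5). Every homozygous library lay above every wild-type library, but those numbered 1 and 2 lay close to the highest wild-type and heterozygous values, and those numbered 4 and 5 at about 2 times these. The change was 1.93-fold (log2 fold change 0.95, SE 0.191, adjusted p = 0.00104). Without the homozygous libraries 4 and 5 it was not called (0.35, adjusted p = 0.0679), and with the GC score as a covariate it stood at 0.0068 (adjusted p = 0.983).

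Slc25a5, the second and ubiquitous adenine nucleotide translocase, was counted at only 11 to 36 reads per library. Its wild-type libraries lay at 11.4 to 16.8 CPM, the heterozygous at 8.06 to 12.1 and the homozygous at 12.4 to 30.5, so the homozygous libraries lay just above the heterozygous ones and overlapped wild-type (0.37 on the log2 scale against wild-type, SE 0.283, adjusted p = 0.350). The counting of its reads is uncertain. Of the 75-base stretches of its transcript, 27.9% also occur in transcripts of other genes in GENCODE M21, most of them annotated as pseudogenes, while 0 are shared between it and Slc25a4. For stretches of 35 bases, the length of the shorter read of each pair, the share in other genes is 63.4%. The pair are shown over the same 75 coding bases (575 to 649 from the start codon), with the bases that differ in capitals, because this stretch of Slc25a5 is found unchanged in 4 other genes (Gm5256, Gm5529, Gm5560 and Gm7560):
Slc25a4: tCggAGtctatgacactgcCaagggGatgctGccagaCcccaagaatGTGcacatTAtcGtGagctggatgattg
Slc25a5: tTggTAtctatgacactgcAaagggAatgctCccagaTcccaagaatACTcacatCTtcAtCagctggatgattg
They differ at 14 of these 75 bases and are 77.5% identical over the 897 coding bases, so reads of this length separate the pair but not Slc25a5 from these copies.

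Slc25a3 lay at 440, 425, 356 and 367 CPM in wild-type and at 329, 330, 400 and 406 in homozygous libraries, with overlapping groups (log2 fold change −0.12, SE 0.115, adjusted p = 0.471). Slc25a23 was at 355, 372, 308 and 321 CPM in wild-type, at 418, 386, 468 and 453 in heterozygous and at 541, 604, 404 and 263 in homozygous libraries. All heterozygous and 3 of the 4 homozygous libraries lay above the wild-type range, and homozygous library 5 lay below it. Its log2 fold change was 0.43 (SE 0.168, adjusted p = 0.0630). Without the homozygous libraries 4 and 5 it was called (0.76, adjusted p = 3.90e-05), as it was with an offset for GC content (0.76, adjusted p = 0.000190) or the GC score as a covariate (0.83, adjusted p = 0.00281). The other ATP-Mg/phosphate carriers tested, Slc25a24 (−0.50, SE 0.373) and Slc25a25 (−0.21, SE 0.178), were not called.

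Of the 7 tested carriers of amino acids and glutathione, 0 were higher and 4 lower (57.1% called, against 25.4% of all genes tested). Of these 4, Slc25a18 alone remained called without the homozygous libraries 4 and 5, and likewise with the GC offset. Slc25a18, glutamate carrier 2, which is enriched in astrocytes, lies on chromosome 6, 120773578 to 120794336, on the plus strand. It stood at 45.5, 34.3, 45.2 and 41.6 CPM in wild-type, at 27.6, 34.6, 24.9 and 28.2 in heterozygous and at 16.8, 17.5, 19.8 and 19.2 in homozygous libraries (17 to 39 counts). All homozygous libraries lay below all others, those numbered 4 and 5 no lower than 1 and 2, and the heterozygous libraries overlapped wild-type only by the highest of them. Homozygotes had 2.30-fold less of it than wild-type (−1.20 on the log2 scale, SE 0.194, adjusted p = 0.000145). The call held in each of the 22 alternative fits of this comparison, with −1.28 without the homozygous libraries 4 and 5 (adjusted p = 0.000361) and −1.19 with the GC score as a covariate (adjusted p = 0.00784). The summed CPM of 7 astrocyte markers ran from 4246 to 5424 in wild-type and from 5139 to 6644 in homozygous libraries. Of the 7, 2 were higher and 1 lower (42.9% called, against 25.4% of all genes tested). The part of these markers in the result was not tested. In bulk tissue, fewer cells of a type and less RNA per cell cannot be told apart.

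Slc25a22, glutamate carrier 1, is encoded on the minus strand of chromosome 7, 141429744 to 141437892. It stood at 60.1, 114, 108 and 76.5 CPM in wild-type, at 57.2, 78.0, 57.9 and 65.6 in heterozygous and at 71.8, 66.4, 19.8 and 23.7 in homozygous libraries. The homozygous libraries 1 and 2 lay within the wild-type range and those numbered 4 and 5 far below it. The log2 fold change was −0.89 (SE 0.279, adjusted p = 0.0215). It was not called without the homozygous libraries 4 and 5 (−0.36, adjusted p = 0.244) or without single libraries, namely wild-type replicate 2 or 3 or homozygous replicate 4 or 5 (−0.65 to −0.78, adjusted p = 0.0595 to 0.0842). Nor was it called with the GC offset (−0.52, adjusted p = 0.0772) or with DESeq2 (−0.94, adjusted p = 0.0745), and it turned to 0.15 with the GC score as a covariate (adjusted p = 0.760).

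Slc25a39, which brings glutathione into mitochondria, lay at 24.2, 23.8, 36.4 and 34.2 CPM in wild-type, at 29.6, 31.3, 25.6 and 27.6 in heterozygous and at 24.1, 14.4, 14 and 10.2 in homozygous libraries. The homozygous library 1 reached the lower wild-type values, and the others lay below them. The log2 fold change was −0.90 (SE 0.242, adjusted p = 0.00914), against −0.68 without the homozygous libraries 4 and 5 (adjusted p = 0.0851) and −0.44 with the GC offset (adjusted p = 0.155). Slc25a44 lay at 72.6, 97.0, 83.8 and 92.6 CPM in wild-type and at 71.8, 67.8, 53.5 and 46.3 in homozygous libraries. These groups were separated by less than 1 CPM, and the change was the smallest of the 8 called carriers (log2 fold change −0.50, SE 0.165, adjusted p = 0.0276). It was not called when any of wild-type replicates 2, 3 and 5 or homozygous replicates 4 and 5 was left out (−0.41 to −0.51, adjusted p = 0.0565 to 0.0838). Without both of the latter it was −0.30 (adjusted p = 0.261). G and C made up 57.8% of the Slc25a22 and 59.7% of the Slc25a39 transcript, higher than in 90.5 and 95.7% of the genes tested.

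Slc25a12, which exports aspartate for the malate-aspartate shuttle, was at 311, 358, 246 and 248 CPM in wild-type, at 234, 244, 229 and 205 in heterozygous and at 214, 261, 206 and 245 in homozygous libraries. The heterozygous libraries all lay just below wild-type, while the homozygous group overlapped it (log2 fold change −0.32, SE 0.132, adjusted p = 0.0756). With the GC offset the change was called (−0.43, adjusted p = 0.0136). The ornithine carrier Slc25a15 (0.30, SE 0.312) and the glycine carrier Slc25a38 (−0.45, SE 0.335) were not called. The other aspartate-glutamate carrier, Slc25a13, the main one of liver, had 0 to 8 counts per library and was not tested.

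Among 8 tested carriers of nucleotides and cofactors, 0 were higher and 1 lower (12.5% called, against 25.4% of all genes tested). Slc25a16 (chromosome 10, 62920633 to 62946498, plus strand) stood at 29.3, 43.8, 36.4 and 32.9 CPM in wild-type, at 31.5, 27.1, 22.7 and 23.0 in heterozygous and at 15.4, 20.7, 18.1 and 27.1 in homozygous libraries. The homozygous libraries all lay below wild-type, and the heterozygous ones in between, overlapping both. The log2 fold change was −0.82 (SE 0.215, adjusted p = 0.00716), and −0.93 without the homozygous libraries 4 and 5 (adjusted p = 0.0107). Its transcript is poor in G and C at 43.4%, and 17.1% of the genes tested were poorer. The part of composition in its change was not tested. With the GC score as a covariate the size was kept at −0.91 but not the call (adjusted p = 0.0764).

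The S-adenosylmethionine carrier Slc25a26 lay at 2.93, 8.56, 21.1 and 11.8 CPM in wild-type and at 15.4, 18.4, 21.4 and 33.9 in homozygous libraries, a difference of 0.92 on the log2 scale (SE 0.365, adjusted p = 0.0665). It was called with DESeq2 (0.98, adjusted p = 0.0463), with no filter on low counts (0.94, adjusted p = 0.0135), and without wild-type replicate 3 (1.44, adjusted p = 0.0137) or homozygous replicate 1 (1.06, adjusted p = 0.0412). Without wild-type replicate 1 it stood at 0.61 (adjusted p = 0.195). Slc25a32, a folate and FAD carrier, was called in the slope on the number of mutant copies (0.45 log2 units per copy, SE 0.166, adjusted p = 0.0482) but not between homozygous and wild-type mice (0.88, adjusted p = 0.0580). The latter was called without wild-type replicate 1, homozygous replicate 1 or homozygous replicate 5 (1.01 to 1.22, adjusted p = 0.0205 to 0.0409). Its libraries held 4 to 37 counts and lay at 12.5, 3.81, 8.02 and 6.22 CPM in wild-type, at 11.6, 7.51, 11 and 9.84 in heterozygous and at 10.7, 16.6, 19.8 and 9.03 in homozygous mice. All 3 groups overlapped, and the slope was not called in 14 of its 21 alternative fits, among them the omission of wild-type replicate 2, 3 or 5, heterozygous replicate 1, 3 or 4, or homozygous replicate 2 or 4 (0.36 to 0.47, adjusted p = 0.0538 to 0.158). The pyrimidine nucleotide carrier Slc25a36 was at −0.63 on the log2 scale (SE 0.324, adjusted p = 0.159). It was called lower without the homozygous libraries 4 and 5 (−1.30, adjusted p = 0.00851), without homozygous replicate 5 alone (−0.99, adjusted p = 0.0270) and with the GC offset (−0.96, adjusted p = 0.0209).

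Slc25a46 had the most positive change of the tested carriers. It is a carrier-like protein of the outer membrane with roles in mitochondrial fission and lipid transfer, and its loss causes neuropathy with optic atrophy, which is also a feature of Wolfram syndrome, the disease of WFS1 mutations. It is encoded on the minus strand of chromosome 18, 31556111 to 31609911. It stood at 111, 75.2, 72.9 and 92.6 CPM in wild-type, at 149, 115, 88.6 and 112 in heterozygous and at 158, 153, 337 and 374 in homozygous libraries. The homozygous libraries lay above all others, those numbered 4 and 5 at more than 2 times those numbered 1 and 2, and the heterozygous libraries overlapped wild-type. Homozygotes had 2.85-fold more of it than wild-type (1.51 on the log2 scale, SE 0.240, adjusted p = 0.000127). It remained called without the homozygous libraries 4 and 5 (0.82, adjusted p = 0.00112) and with the GC offset (1.15, adjusted p = 4.84e-05), but not with the GC score as a covariate (0.50, adjusted p = 0.139). Its transcript is poor in G and C at 40.7%, and 7.28% of the genes tested were poorer.

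Slc25a35, an orphan carrier, was counted at 5 to 24 reads per library. It stood at 6.60, 6.66, 3.64 and 3.11 CPM in wild-type, at 6.43, 10, 5.86 and 7.22 in heterozygous and at 14.8, 9.88, 10.7 and 7.90 in homozygous libraries. The homozygous libraries lay above wild-type and overlapped the heterozygous ones (log2 fold change 1.16, SE 0.361, adjusted p = 0.0207). It was not called without wild-type replicate 3 or 5 or homozygous replicate 1 (0.97 to 1.05, adjusted p = 0.0679 to 0.0739). It was also lost in the fit of only these 2 genotypes, where its low counts did not pass the filter. That filter asks for about 10 counts, scaled to library size, in 4 libraries. Wild-type libraries held 9, 7, 5 and 5, so Slc25a35 was tested through mutant libraries, where it was higher. Its call is thus not independent of the filter. Exons of Rangrf on the opposite strand cover 31.3% of its exon bases (Atp6v1e1 covers 1.67% of those of Slc25a18), and since the strand of the counts is not given, reads of the pair cannot be told apart. The gene B930094E09Rik on the opposite strand covers 7.06% of the exon bases of Slc25a46, with the same limit. Of the 75-base stretches of the Slc25a35 transcript, 23.1% also occur in transcripts of Rangrf or of 3 genes annotated as pseudogenes.

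**Figure D3:**
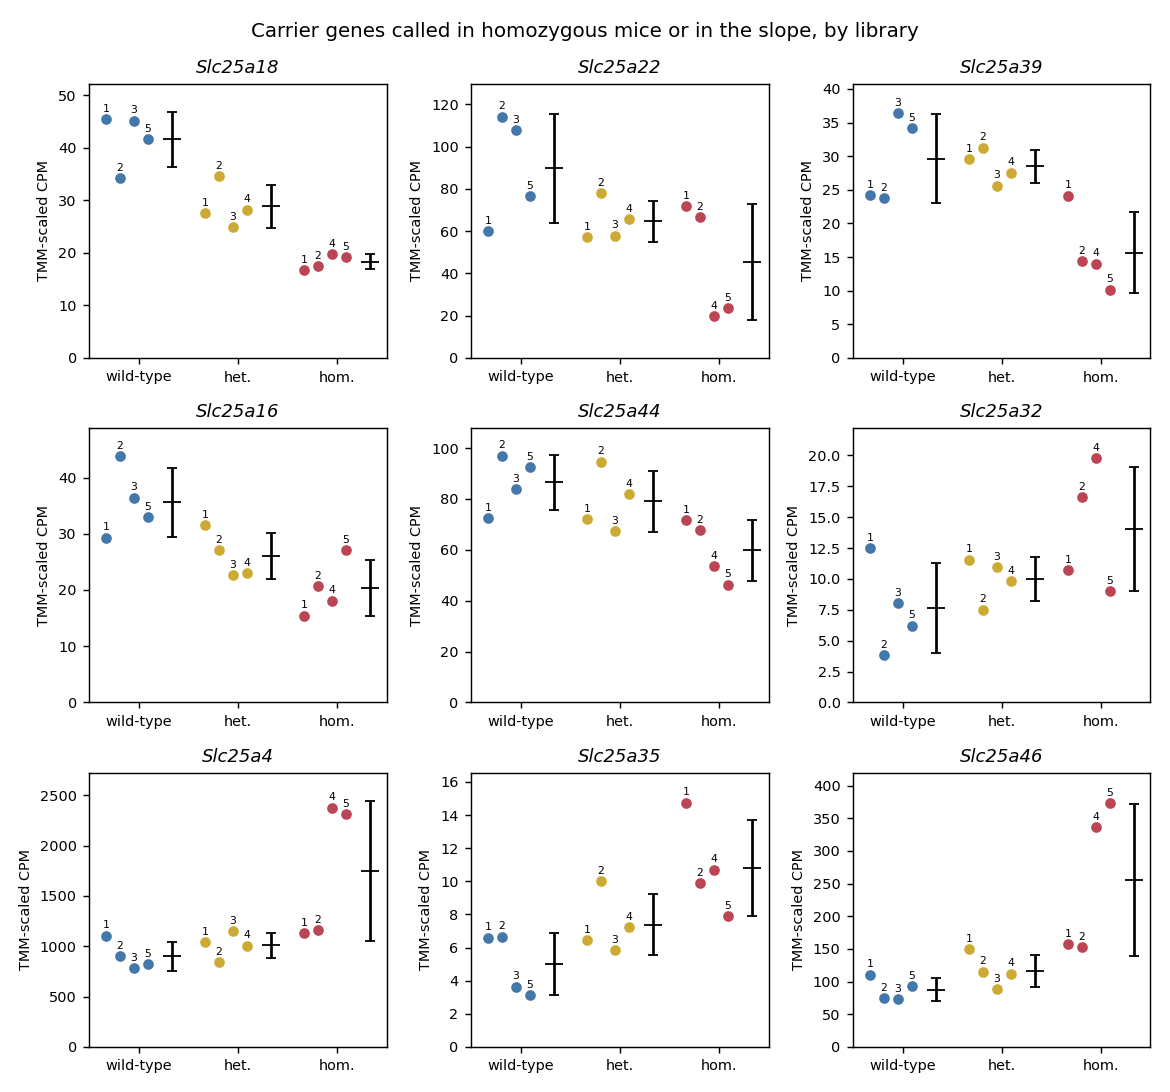
TMM-scaled CPM (y axis, from 0) of the 9 carriers called in homozygous mice or in the slope, in each library (points, with the replicate number) by genotype (x axis), beside the mean and SD of each genotype (n = 4). Slc25a18 is tight at 16.8 to 19.8 in homozygous mice, whereas Slc25a4, Slc25a46 and Slc25a22 split, with the libraries numbered 4 and 5 apart from 1 and 2.

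The remaining groups held 0 called carriers. Of 3 tested carboxylate carriers, the dicarboxylate carrier Slc25a10 was at −1.02 (SE 0.441, adjusted p = 0.0930), the citrate carrier Slc25a1 at −0.41 (SE 0.301) and the oxoglutarate carrier Slc25a11 at 0.10 (SE 0.145) on the log2 scale. Slc25a10 held only 1 to 14 counts per library. The brain uncoupling-protein relatives Slc25a14 (0.44, SE 0.186, adjusted p = 0.0881) and Slc25a27 (−0.40, SE 0.247) lay on opposite sides of 0. Slc25a10 and Slc25a27 were called lower without homozygous replicate 1, and Slc25a14 was called higher without homozygous replicate 2. The iron carriers, mitoferrins Slc25a37 (0.06, SE 0.234) and Slc25a28 (−0.20, SE 0.269), and the acylcarnitine carrier Slc25a20 (0.09, SE 0.354) differed by less than their standard errors. In all, 7 of the 23 tested carriers that were not called had an unadjusted p under 0.05 (30.4%), as had 16.1% of all genes not called.

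The composition of the transcripts ran alongside these changes. Over 10625 genes with a known G and C share, the log2 fold change of homozygous over wild-type correlated with it at a Pearson r of −0.473, and over the 31 tested carriers at −0.363. Genes share libraries and are not independent, so these are descriptions. With the GC offset, which removes a smooth trend on G and C from each library, 4 carriers were higher and 4 lower (25.8%, against 21.2% of all genes in that fit), and 5 of the 8 remained called: Slc25a4, Slc25a35, Slc25a46, Slc25a16 and Slc25a18. With the GC score as a covariate 2 carriers were called, Slc25a18 and Slc25a23 (6.45%, against 4.36% of all genes). That score separates wild-type from homozygous libraries, so score and genotype cannot be told apart in full. The median over the tested carriers was 0.014 with the offset and 0.0071 with the score. Without the homozygous libraries 4 and 5, 3 carriers were higher and 3 lower of 33 tested (18.2%, against 11.9% of all genes in that fit), and 4 of these were among the 8: Slc25a18, Slc25a16, Slc25a35 and Slc25a46.

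**Figure D4:**
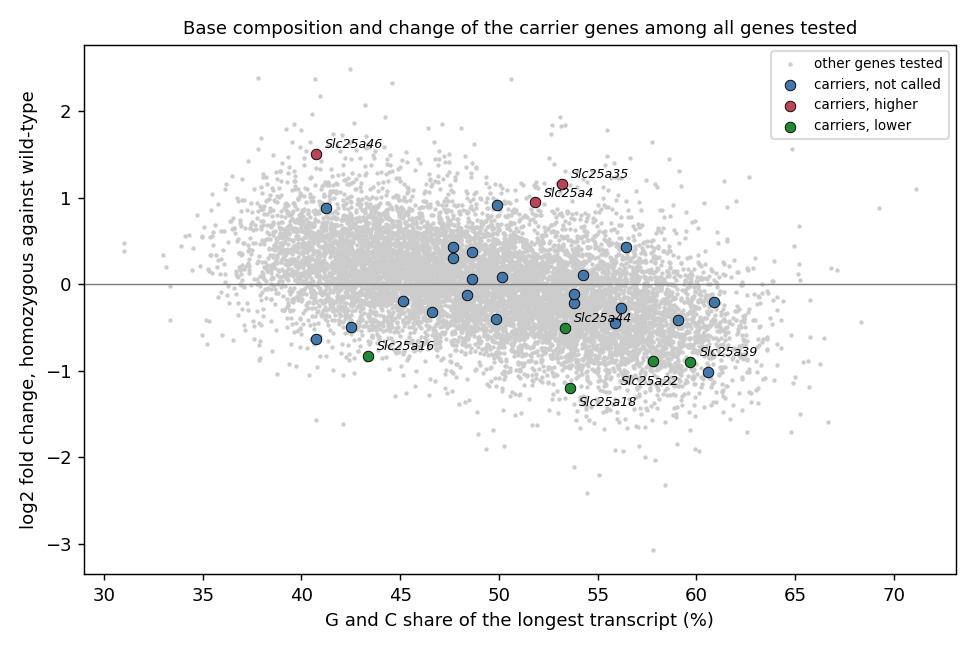
Homozygous over wild-type, log2 fold change (y axis) against the G and C share of the longest transcript in percent (x axis), for all other genes tested (grey) and 30 of the tested carriers (coloured by call). Slc25a46 at 40.7% and Slc25a39 at 59.7% changed in the direction of the downward slope of the grey points, and Slc25a16 at 43.4% lies below that slope. With the GC offset, which removes this trend, Slc25a46 remained called and Slc25a39 did not.

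**Figure D5:**
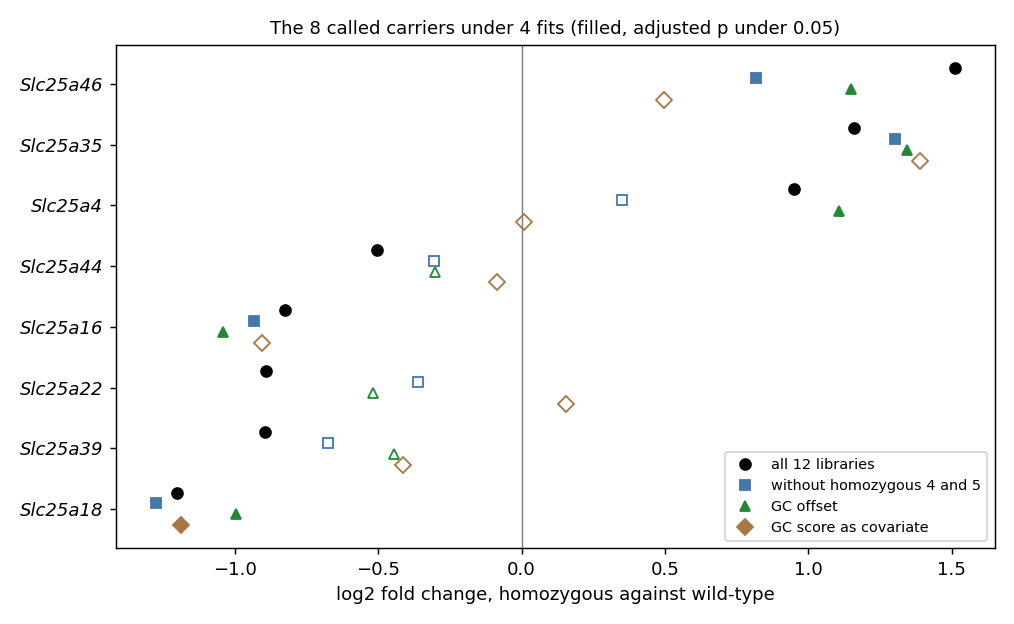
Homozygous over wild-type, log2 fold change (x axis) of the 8 called carriers (y axis) in 4 fits, filled where the adjusted p is under 0.05. Slc25a18 stays filled in all 4, and Slc25a4 runs from 0.0068 with the GC score to 1.11 with the GC offset.

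In heterozygous mice 0 of the 31 tested carriers differed from wild-type by edgeR's test (0.596% of all genes were called, 0.512% higher and 0.0838% lower). An unadjusted p under 0.05 was found for 5 (16.1%, against 14.2% of all genes tested), and DESeq2 and limma-voom also called 0. The most extreme values were −0.92 for Slc25a10 and 0.64 for Slc25a35 (adjusted p = 0.321 and 0.457), and the median was −0.12 against −0.01 over all genes tested. These extremes rest on low counts, 1 to 14 per library for Slc25a10 and 5 to 24 for Slc25a35. Slc25a23 was at 0.35 (adjusted p = 0.352), and it was called at this contrast when the homozygous libraries 4 and 5 were left out of the fit or the GC score was added. Between homozygous and heterozygous mice, 2 carriers were higher and 0 lower (2.2% of all genes were called, 1.74% higher and 0.456% lower): Slc25a46 (1.11, SE 0.232, adjusted p = 0.0186) and Slc25a4 (0.79, SE 0.190, adjusted p = 0.0332). Neither was called without homozygous replicate 4 or 5 or heterozygous replicate 2 or 4, and Slc25a4 also not without heterozygous replicate 1. With upper-quartile scaling the split over all genes at this contrast was 125 higher and 58 lower, against 187 and 49. The comparisons share libraries and are set side by side only.

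The slope on the number of mutant copies had 4 carriers higher and 5 lower (25.7% of all genes were called, 13.9% higher and 11.8% lower; 1241 higher and 1574 lower with upper-quartile scaling, against 1492 and 1265). Slc25a46 changed by 0.77 (SE 0.121, adjusted p = 8.91e-05) and Slc25a18 by −0.59 log2 units per copy (SE 0.0944, adjusted p = 9.64e-05). The other 7 were Slc25a4 (0.48), Slc25a35 (0.57), Slc25a32, Slc25a16 (−0.41), Slc25a22 (−0.45), Slc25a39 (−0.42) and Slc25a44 (−0.25). Without the homozygous libraries 4 and 5 the slope was called for 4 of these 9, Slc25a46 (0.41), Slc25a35 (0.65), Slc25a18 (−0.61) and Slc25a16 (−0.46). It was then lost for Slc25a4 (0.17, adjusted p = 0.0547), Slc25a32 (0.42), Slc25a22 (−0.21), Slc25a39 (−0.29) and Slc25a44 (−0.15). With the GC offset it was lost for Slc25a32 (0.31), Slc25a22 (−0.26), Slc25a39 (−0.20) and Slc25a44 (−0.15). With the GC score as a covariate the slope was called for 1 of the 9, Slc25a18, and also for Slc25a3 and Slc25a23. The heterozygous means of the 9 lay between the other genotypes' means in each case, which their choice by the slope favours. As a share of the way from the wild-type to the homozygous mean, they ran from 0.08 for Slc25a39 to 0.62 for Slc25a16. Slc25a4 (0.13) and Slc25a46 (0.17) also lay near wild-type.

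Promoters were read from RefSeq (GRCm38.p6; 250 bases before to 50 after a gene's start), which held windows for 34 of the 44 carriers and for 5 of the 8 called between homozygous and wild-type mice. Motifs were searched on both strands: GCGC, any base and TGCGC for NRF1, a regulator of nuclear genes for mitochondria, TCAAGGTCA for estrogen-related receptors, TGACGTCA for CREB, CCAAT, any 9 bases and CCACG for the ER stress response, and CCAAT alone, which is also the start of the latter. The first 4 were found in 0 of the 5 called carriers with windows, against 5.19, 0.466, 2.03 and 0.137% of all 27025 genes with one. CCAAT was found in 2 of the 5, Slc25a4 and Slc25a22, and in 41.1% of all genes. Over the 34 carriers with windows, the NRF1 letters occur in 2 (5.88%), Slc25a3, not called between homozygous and wild-type mice, and Slc25a31, not tested. The CREB letters occur in 2 (5.88%), Slc25a25 and Slc25a36, and CCAAT in 18 (52.9%). The stretches of 30 bases are shown with the match in capitals, since they are the matches in the 2 called carriers and in the highly counted Slc25a3; they lie at chr8:46211157-46211186, chr8:46211101-46211130, chr7:141435390-141435419 and chr10:91124162-91124191, all on the minus strand:
Slc25a4 distal: gcgtcttcgcccCCAATgccctctgcaaag
Slc25a4 proximal: ggaccagcccagCCAATgcgcgctgcgcgc
Slc25a22: cccgcccctccgCCAATccccgtaggcttt
Slc25a3: ctttggatctGCGCCTGCGCagtaggaatc
The matches in Slc25a4 start 112 and 56 bases before its RefSeq start. The gene's span given above is from GENCODE M21 and begins further upstream, so both matches lie inside it. The match in Slc25a22 starts 32 bases before 1 of its 3 RefSeq starts, and that in Slc25a3 214 bases before its RefSeq start.

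Genes that work with the carriers were called in both directions, as were all genes tested (25.4% called, 13.7% higher and 11.6% lower). The lists are short, and the share called is given beside each count. Of the family members with Ucp and Mtch symbols 3 were tested, with 0 higher and 2 lower (66.7% called). The uncoupling protein Ucp2 fell from 72.5 ± 16.2 to 39.0 ± 14.3 CPM (SD, n = 4), by −0.85 on the log2 scale (SE 0.231, adjusted p = 0.00967). Mtch1, a carrier relative of the outer membrane, fell from 190 ± 33.6 to 137 ± 24.8 (−0.47, SE 0.145, adjusted p = 0.0206). Without the homozygous libraries 4 and 5 neither was called (−0.53 and −0.27, adjusted p = 0.0839 and 0.235), and Mtch1 stood at 0.085 with the GC offset. Of 15 other inner membrane transporters, 2 were higher and 2 lower (26.7% called). Sfxn5, a sideroflexin, fell from 144 ± 17.4 to 79.2 ± 17.0 CPM (−0.84, SE 0.157, adjusted p = 0.000547). Efha1, the uniporter regulator now named Micu2, rose by 0.71 on the log2 scale (adjusted p = 0.0120). Sfxn5 remained called without the homozygous libraries 4 and 5 (−0.61, adjusted p = 0.00840), and Efha1 (0.41) did not.

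The outer membrane channels had 0 of 3 called, with Vdac1 at 0.30 (adjusted p = 0.0607). Of 10 genes that import carriers, 1 was higher and 1 lower (20% called, against 25.4% of all genes tested). The higher one was 1810026J23Rik, now Timm29, of the carrier translocase (0.52, adjusted p = 0.0119). The lower one was the outer membrane pore Tomm40 (−1.18, adjusted p = 0.0104). Without the homozygous libraries 4 and 5 Tomm40 stood at −0.73 (adjusted p = 0.114). In the malate-aspartate and glycerol phosphate shuttles 3 of 6 enzymes were higher and 1 lower (66.7% called). Cytosolic malate dehydrogenase Mdh1 (0.57, SE 0.132, adjusted p = 0.00318), cytosolic aspartate aminotransferase Got1 (0.40, SE 0.130, adjusted p = 0.0273) and Gpd2 (0.34, adjusted p = 0.0342) rose, and mitochondrial malate dehydrogenase Mdh2 fell (−0.51, SE 0.149, adjusted p = 0.0149). Without the homozygous libraries 4 and 5 Mdh1 (0.45, adjusted p = 0.0239) and Got1 (0.62, adjusted p = 0.000638) remained called, and Mdh2 (−0.28) and Gpd2 (0.29) did not.

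Of 4 tested carnitine shuttle enzymes 0 were higher and 1 lower (25% called, against 25.4% of all genes tested). The lower one was the brain isoform Cpt1c (−0.68, adjusted p = 0.0310), which was at −0.54 and not called without the homozygous libraries 4 and 5. Of 16 citric acid cycle enzymes 1 was higher and 4 lower (31.2% called). Sdha was higher (0.43, adjusted p = 0.0158). The lower ones included Mdh2 and Cs, which stand in other lists too, Ogdh (−0.39, adjusted p = 0.0238) and Idh3a (−0.45, adjusted p = 0.0276). Of Sdha, Ogdh and Idh3a, the last remained called without the 2 libraries (−0.51, adjusted p = 0.0360). Of 9 genes of mitochondrial mass and biogenesis 3 were higher and 2 lower (55.6% called). The coactivator Ppargc1a rose from 174 ± 39.5 to 299 ± 36.2 CPM (SD, n = 4; 0.77, SE 0.148, adjusted p = 0.000675), and citrate synthase, Cs, fell from 377 ± 28.4 to 297 ± 25.0 (−0.34, SE 0.112, adjusted p = 0.0283). Nrf1 fell by 0.98 (SE 0.308, adjusted p = 0.0220) and Gabpa rose by 0.52 (adjusted p = 0.0242), both of them transcription factors for mitochondrial genes. Without the 2 libraries Ppargc1a remained called (0.63, adjusted p = 0.00493), and Cs (−0.27), Nrf1 (−0.85) and Gabpa (0.36) did not.

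Markers of the labelled tissue were present: all 12 hypothalamic neuron genes were counted and 11 tested, with a sum of 1137 to 1556 CPM in wild-type and 1307 to 1658 in homozygous libraries. Pmch made up 880 of the mean wild-type sum of 1337 CPM. Of the 11 tested, Sst was higher (1.03), and Trh (−1.08), Hdc (−1.11) and Pomc (−1.12) were lower, and the median was −0.48 on the log2 scale. The sum of 7 general neuron markers was 4933 to 6112 CPM in wild-type and 6436 to 8999 in homozygous libraries (3 genes higher, 1 lower), and that of 7 endothelial and pericyte markers 140 to 174 against 80.2 to 123 (0 higher, 2 lower). The sums of 8 oligodendrocyte and 7 microglial markers overlapped (3363 to 4216 against 2317 to 3738, and 163 to 192 against 147 to 174 CPM). Of 4 pituitary genes 2 were at 0 in every library. Called were 36.4% of the tested hypothalamic neuron genes, 57.1% of the general neuron and 33.3% of the endothelial and pericyte markers. Of the oligodendrocyte markers 37.5% and of the microglial ones 0% were called, against 25.4% of all genes tested. These marker calls are from the main fit, and no alternative fit is given for them. The part of these marker levels in the carrier results was not tested.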

How the data were processed

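RNA of 12 mouse hypothalami was sequenced. Per the labels' protocols, 50 ng of total RNA was turned into cDNA by NuGEN's Ovation V2 kit and read on a SOLiD 5500xl as pairs of 75 and 35 bp. The authors deposited raw counts per gene symbol. Per the submitters' processing notes the build is mm10. For aligner, counter, annotation and strand nothing is given in the sources used here. All 12 columns were used, 1 of them placed by genotype only.

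The test was that of edgeR 4.0.16 in R 4.3.3 (TMM, default filter on low counts, quasi-likelihood F tests, all 12 libraries in 1 fit; common biological coefficient of variation 0.1485), and the carriers' rows were taken from the fit of all genes. SE is the log2 fold change over the square root of F. The alternatives were DESeq2 1.42.0, limma-voom 3.58.1, other scaling and filters, fewer libraries and, chosen after seeing the data, the GC score, the GC offset and the omission of homozygous libraries 4 and 5. On simulated counts of 10561 genes, 80.9 and 86.0% of 2-fold falls and rises between homozygous and wild-type libraries were recovered. Unlike these data, the simulation gave all genes the same spread, changed few genes, and had no GC trend and no libraries standing apart. The rate in these data may differ. Transcripts and exons were taken from GENCODE M21, matched directly by symbol for 20717 genes, by an older symbol for 1894 and not for 1409. G and C shares use the longest coding transcript.

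Members, lists and rules were chosen with earlier results of these data known. Named in full were the called carriers, the 4 with the highest CPM, and in each list the up to 4 genes of smallest p at a mean of at least 1 CPM. Slc25a5, Slc25a26 and the other carriers named were chosen after their values were seen. Replicate numbers recur across genotypes, but deviations correlated above 0.1 in 1 of 9 same-numbered pairs (−0.265 to 0.337), so the numbers were not taken to pair the samples. Some genes of the fit, 1 of the carriers among them, are counted in the totals but not reported here by name, and that carrier is left out of the figures.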

Additional observations from a re-analysis of the deposited data

How the results depend on the processing

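Beside the alternatives named with each result, the number of carriers called between homozygous and wild-type mice (8) was 6 to 11 when single libraries were left out and 2 with the GC score as a covariate. The number of genes (2723) was 1856 to 3076, 468 with the GC score, and 1344 without the 2 homozygous libraries numbered 4 and 5. For heterozygous against wild-type mice, the number of carriers (0) was 0 to 0 over omissions of single libraries, and 1 (Slc25a23) both without the homozygous libraries 4 and 5 and with the GC score. The number of genes there (64) was 3 to 218 over omissions, 228 with DESeq2, 280 with no filter, 394 with limma-voom, 382 with only these 2 genotypes, 430 without the homozygous libraries 4 and 5, 263 with the GC score and 153 with the GC offset. For homozygous against heterozygous mice, the number of carriers (2) was 0 to 3 over omissions, 1 with limma-voom, and 0 with the replicate block, only these 2 genotypes, without the homozygous libraries 4 and 5 or with the GC score. The number of genes there (236) was 6 to 867 over omissions, 460 with DESeq2, 727 with no filter, 78 with limma-voom, 15 with the replicate block, 44 with only these genotypes, and 1 both without the homozygous libraries 4 and 5 and with the GC score. For the slope, the number of carriers (9) was 6 to 11 over omissions and 3 with the GC score (Slc25a18, which is among the 9, Slc25a3 and Slc25a23). The number of genes there (2757) was 1936 to 2942 over omissions, 1582 without the homozygous libraries 4 and 5, and 576 with the GC score. With the GC score the log2 fold change of Slc25a22 reversed to 0.15 and its slope to 0.055, and the slope of Slc25a4 to −0.0095. With the GC offset Mtch1 reversed to 0.085. The cause of these shifts was not tested. The replicate block added a call of Slc25a26 (1.25, adjusted p = 0.0129) and ended those of Slc25a35 (1.01, adjusted p = 0.0776) and, in the slope, of Slc25a35 and Slc25a32. Of 12 libraries, 4 correlated best with one of their own number. Slc25a35 had 5 to 24 and Slc25a32 4 to 37 counts per library.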

Other observations

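Rows that RefSeq equates with carriers but that have other symbols in the table stand outside the 44. They were singled out after their values were seen. Mcart1 (Slc25a51, a carrier of NAD) stood at 66.7, 67.6, 69.2 and 87.6 CPM in wild-type, at 97.7, 80.9, 117 and 84.0 in heterozygous and at 116, 101, 119 and 132 in homozygous libraries. All homozygous libraries lay above all wild-type ones, those numbered 4 and 5 close to 1 (log2 fold change 0.67, SE 0.152, adjusted p = 0.00284 by edgeR). Mcart6 (Slc25a53, of unsettled substrate) stood at 4.40, 9.51, 3.64 and 4.97 CPM in wild-type and at 16.1, 13.0, 10.7 and 15.8 in homozygous libraries, again without overlap (1.33, SE 0.336, adjusted p = 0.00565 by edgeR). At these wild-type levels Mcart6 passed the filter on low counts through mutant libraries, so its call is not independent of the filter. For Mcart1 and Mcart6 no alternative fit is given. Slc25a54, as 4930443G12Rik, had 2 counts in all 12 libraries.

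The 13 carriers with too few counts to test included Slc25a40 (79 counts over 12 libraries, a relative of Slc25a39), Slc25a29 (66), Slc25a30 (56) and Slc25a13 (42). Slc25a31, the testis isoform of the adenine nucleotide translocase, had 21, and Slc25a2, Slc25a41, Slc25a43 and Slc25a48 had 3 to 6.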
